A study of Mus musculus with 8 samples.

Results

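Small-intestinal absorptive cells take up sugar across the brush border, split fructose, and can make and release glucose. Slc5a1 encodes SGLT1, the sodium-coupled glucose and galactose transporter of the brush border, Slc2a5 encodes the fructose transporter GLUT5, and Slc2a2 encodes GLUT2, which passes glucose, galactose and fructose out to the blood. Khk encodes ketohexokinase, the entry enzyme of fructolysis, and Tkfc encodes the kinase that phosphorylates glyceraldehyde further down that route. Pck1, Fbp1 and G6pc encode cytosolic phosphoenolpyruvate carboxykinase, a fructose-1,6-bisphosphatase and the catalytic subunit of glucose-6-phosphatase, which act in this order in gluconeogenesis.

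These 8 genes were listed by name and their rows were found by Ensembl identifier, with the exon coordinates of each row checked against the annotation of mouse build GRCm38. All 8 had a value, out of 13081 genes with a value in the series, and all 8 passed the filter on low values that left 10271 genes for testing, with a mean above the filter's 0.5 FPKM in each group. RNA sequencing had been done on intestinal crypt organoids, epithelial cultures grown in Matrigel with IntestiCult OGM medium. There were 4 samples of wild type (WT) littermates and 4 of MG53-TG mice, which overexpress MG53, the TRIM-family protein encoded by Trim72, throughout the body. The labels name no other allele and no treatment. The study also describes crypt organoids of MG53;Lgr5 mice, in which the transgene was crossed to a knock-in of a reporter and an inducible Cre at Lgr5, with Lgr5 mice as controls, and the labels do not say whether such mice gave any of these samples. The promoter driving the transgene, the age of the mice and the intestinal segment of each culture are not given in the labels used here, and the labels do not say whether each sample came from its own mouse. The p-values therefore measure the spread between these samples, which may in part be technical.

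Levels are given in FPKM, fragments scaled by transcript length and by the number of mapped fragments. The depth of each library is unknown. The summed FPKM of all transcription start events ranged from 269642 to 273526 over the WT samples and 268767 to 283877 over the MG53-TG samples. Trim72 had no listed event in the 4 WT samples and had 16.4, 27.4, 31.9 and 36.5 FPKM in the transgenic samples 1 to 4, in accord with the labels. Fold changes were computed on log2(FPKM + 1), which understates the change of genes with low FPKM, and were tested with limma with adjustment over all 10271 genes.

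Of the 8 genes, 6 were higher and 1 was lower in the MG53-TG organoids, and Pck1 did not pass the threshold of 0.05. Among all genes tested, 44.7% passed, 15.5% as higher and 29.2% as lower. The groups did not overlap in 7 of the 8 genes, 6 higher and 1 lower, against 44.8% of all genes tested, 15.7% higher and 29.1% lower. The median log2 fold change of the 8 genes was 2.39, against -0.17 for all genes tested. With median-of-ratios scaling, the share of higher genes among all those that passed was 50.1% instead of 34.6%, and it was 44.8% with quantile normalization.

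**Figure D1:**
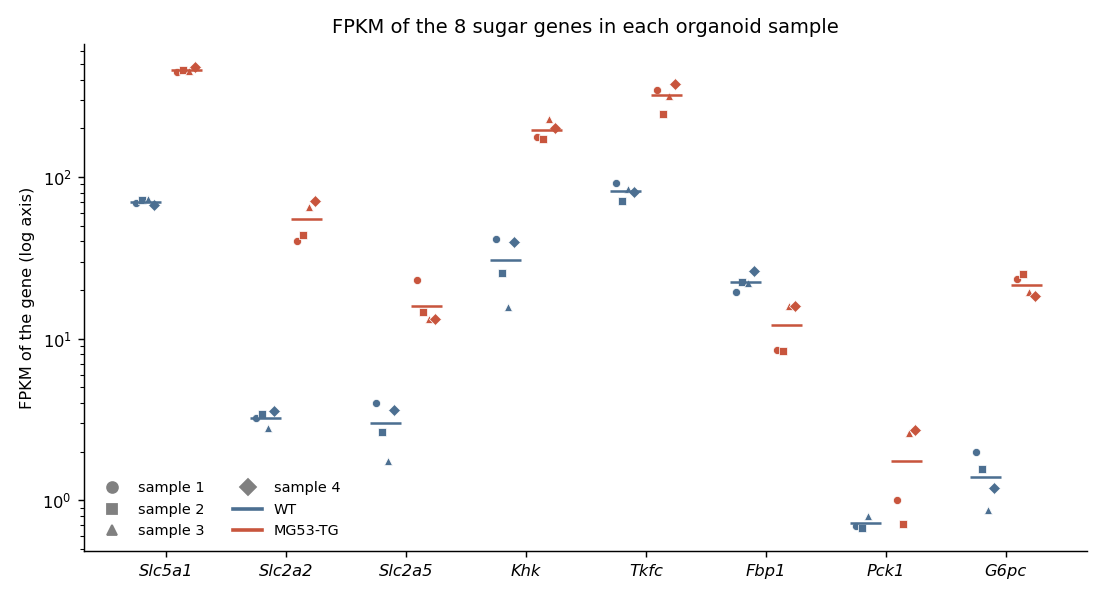
FPKM of each of the 8 genes (log axis) in the 4 WT (blue) and 4 MG53-TG (red) samples, with the sample number given by the marker and the group mean by the line. The MG53-TG samples lie above all WT samples for Slc5a1, Slc2a2, Slc2a5, Khk, Tkfc and G6pc and below them for Fbp1, and Pck1 overlaps.

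The 3 sugar transporters were all higher in the MG53-TG organoids. Slc5a1 (ENSMUSG00000011034, chr5:33104219-33162870, plus strand) was at 69.4, 72.2, 72.9 and 67.0 FPKM in WT samples 1 to 4 and in MG53-TG samples 1 to 4 it reached 444, 458, 452 and 478 FPKM. The samples of each group lay close together, and the lowest MG53-TG sample was 6.09 times the highest WT sample. The means were 70.4 ± 2.72 and 458 ± 14.7 FPKM (SD, n = 4), a ratio of 6.51. The log2 fold change was 2.69 ± 0.068 (SE; limma, adjusted p = 8.33e-08).

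Slc2a2 (ENSMUSG00000027690, chr3:28697903-28731359, plus strand) was barely expressed in the WT organoids, at 3.24, 3.40, 2.80 and 3.55 FPKM. It reached 40.1, 43.8, 64.9 and 70.9 FPKM in MG53-TG samples 1 to 4. MG53-TG samples 3 and 4 were above MG53-TG samples 1 and 2, and all 4 were far above every WT sample. The mean rose from 3.25 ± 0.323 to 54.9 ± 15.2 FPKM (SD, n = 4), a ratio of 16.9, the largest among the 8 genes. The log2 fold change was 3.68 ± 0.19 (SE; limma, adjusted p = 3.15e-06). Most of the increase came from transcripts starting at the annotated first base of the gene, whose start event was at 2.29 to 2.67 FPKM in WT and 40.0 to 70.1 FPKM in the MG53-TG samples. A start further upstream (chr3:28695715-28696027), outside the annotation of the gene, was listed at 0.499, 1.02 and 0.695 FPKM in WT samples 1, 2 and 4 and in no MG53-TG sample.

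Slc2a5 (ENSMUSG00000028976, chr4:150119283-150144169, plus strand) was at 3.98, 2.65, 1.76 and 3.63 FPKM in the WT samples and at 23.2, 14.6, 13.2 and 13.2 FPKM in the MG53-TG samples. MG53-TG sample 1 stood above the other 3. The mean rose from 3.01 ± 1.00 to 16.0 ± 4.80 FPKM (SD, n = 4), a ratio of 5.33, with a log2 fold change of 2.09 ± 0.24 (SE; limma, adjusted p = 0.000205). This gene was measured by a single end event, since no start event of it was analysed here.

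The relative levels of the transporters also shifted. Slc2a5 made up 47.0% ± 7.29 of the summed FPKM of Slc2a5 and Slc2a2 in the WT and 23.5% ± 9.63 in MG53-TG (SD, n = 4 each; two-sided exact permutation test, p = 0.0286, adjusted over 7 sets of related genes 0.0333). The call was lost when any single WT sample was left out (exact permutation test, adjusted p = 0.0667 in each case). Slc2a1, which encodes the widely expressed glucose transporter GLUT1, was at 5.99, 12.8, 6.18 and 8.91 FPKM in the WT samples and at 3.40, 15.9, 2.38 and 3.499 FPKM in the MG53-TG samples, and did not pass the threshold (log2 fold change -0.65 ± 0.48 SE, limma adjusted p = 0.298). Slc2a2 made up 29.0% ± 5.93 of Slc2a2 and Slc2a1 together in the WT and 89.3% ± 10.8 in MG53-TG (SD, n = 4 each; exact permutation p = 0.0286, adjusted 0.0333). In MG53-TG sample 2, in which Slc2a1 was highest, this share was 73.4%, against 92.2% to 96.5% in the other 3. Slc5a1 was already at 89.4% ± 3.44 of Slc5a1 and Slc2a1 together in the WT and reached 98.7% ± 1.35 in MG53-TG (SD, n = 4 each; exact permutation p = 0.0286, adjusted 0.0333).

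Of 19 other sugar transporter genes, 14 had a value and 9 were tested, of which 5 were called higher, 0 lower and 4 did not pass. Of the 5, Slc5a11, Slc2a7 and Slc5a4b averaged below 0.5 FPKM in WT and passed the filter on low values through the MG53-TG samples alone, so their direction was set by the filter and the count gives no support. Under both other scalings 5 were called higher and 0 lower. Slc5a11, a sodium-coupled inositol transporter, was at 0.216 ± 0.191 in WT and 4.17 ± 2.19 FPKM in MG53-TG, and Slc2a7, a hexose transporter, at 0.0303 ± 0.0216 and 2.82 ± 1.18 FPKM (SD, n = 4 each). Slc2a9, a urate transporter, rose from 1.23 ± 0.189 to 5.60 ± 2.87 FPKM, and Slc5a9, a sodium-coupled mannose and glucose transporter, from 1.95 ± 0.299 to 6.69 ± 1.70 FPKM (SD, n = 4 each). The limma adjusted p was 0.00306 for Slc2a9 and 0.000412 for Slc5a9.

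Both fructolysis genes among the 8 were higher in the MG53-TG organoids. Khk (ENSMUSG00000029162, chr5:30921431-30931248, plus strand) was at 41.5, 25.6, 15.7 and 39.6 FPKM in the WT samples and at 177, 172, 227 and 200 FPKM in the MG53-TG samples. The WT samples differed among themselves by more than the MG53-TG samples did in proportion, with a coefficient of variation of 39.8% against 13.0%, and the groups did not overlap. The mean rose from 30.6 ± 12.2 to 194 ± 25.2 FPKM (SD, n = 4), a ratio of 6.34, with a log2 fold change of 2.71 ± 0.28 (SE; limma, adjusted p = 0.000118). The end events of Khk were lower in WT, at 20.8, 6.25, 7.96 and 22.1 FPKM, and were at 119, 172, 227 and 146 FPKM in the MG53-TG samples. With them the log2 fold change of Khk was larger, at 3.60 (limma adjusted p = 0.000238). The end events were close to the gene's FPKM in MG53-TG samples 2 and 3 and lower in every other sample. The larger change is thus not independent of the exon patterns described below.

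The Khk transcripts also differed in their exons. Khk is known for a pair of neighbouring exons of which a transcript usually holds 1, which gives the enzyme forms ketohexokinase A and C with different affinity for fructose. The annotation used here does not say which exon belongs to which form, so they are called the upstream and the downstream exon. Both lie wholly in coding sequence, are 135 bases long and are identical at 73 positions (54.1%) when laid side by side without gaps. They are shown because the share of transcripts with each exon alone did not overlap between the groups, a difference that was not tested. The 62 differing positions are in capitals (GRCm38, plus strand, chr5:30926688-30926822 for the upstream and chr5:30927022-30927156 for the downstream exon).
upstream exon: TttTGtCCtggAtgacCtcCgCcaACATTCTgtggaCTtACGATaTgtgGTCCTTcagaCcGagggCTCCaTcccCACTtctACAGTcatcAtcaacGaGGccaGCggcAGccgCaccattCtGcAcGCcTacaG
downstream exon: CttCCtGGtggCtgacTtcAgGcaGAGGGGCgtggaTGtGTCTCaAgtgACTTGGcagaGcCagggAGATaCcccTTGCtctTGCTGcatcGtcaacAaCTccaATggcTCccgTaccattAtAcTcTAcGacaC

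The files list 4 patterns of transcripts between the flanking exons, namely with the upstream exon, with the downstream exon, with both or with neither. In the WT samples, transcripts with the upstream exon alone were at 20.6, 19.4, 7.77 and 17.5 FPKM. Transcripts with the downstream exon alone were at 1.13 FPKM in WT sample 1 and at 0.000389, 0.000537 and 0.00144 FPKM in WT samples 2 to 4. Transcripts with both exons added 2.23 FPKM in WT sample 2 and no more than 0.318 FPKM in the other WT samples. In every WT sample the upstream exon alone was thus the more abundant of the single-exon patterns.

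In MG53-TG samples 1 to 4, transcripts with the downstream exon alone were at 69.4, 109, 207 and 93.0 FPKM, and those with the upstream exon alone at 49.7, 0.184, 0.155 and 39.9 FPKM. The downstream exon was the more abundant in every MG53-TG sample, and the upstream exon was close to absent in samples 2 and 3 but, in samples 1 and 4, at a higher FPKM than in any WT sample. The downstream pattern made up 2.76%, 0.00121%, 0.00334% and 0.00370% of the 4 patterns in the WT samples and 41.9%, 64.3%, 93.1% and 52.1% in the MG53-TG samples. The upstream pattern made up 44.8% to 60.2% in WT and 0.0698% to 30.0% in the MG53-TG samples. The groups did not overlap in either share. Counting only transcripts with 1 of the exons, the downstream exon was at 0.00201% to 5.20% in WT and 58.3% to 99.9% in the MG53-TG samples.

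Transcripts with neither exon were at 19.1, 10.6, 7.97 and 21.5 FPKM in WT and at 46.5, 60.5, 15.0 and 14.7 FPKM in the MG53-TG samples, which overlapped. Transcripts with both exons reached 31.0 FPKM in MG53-TG sample 4 and no more than 0.0842 FPKM in the other MG53-TG samples. The annotation holds 5 Khk transcripts, of which 1 has both exons and 1 joins the flanking exons directly. The 4 patterns summed to between 92.9% and 100% of all start events listed at the first base of the gene. These include 7.21 FPKM in WT sample 2 and 0.975 FPKM in WT sample 3 from first exons that end outside the annotation, which the gene's own FPKM leaves out. The end event of the gene fell short of the start events in the samples where the upstream exon alone was abundant. It nearly equalled them in MG53-TG samples 2 and 3, where that exon was close to absent. Whether transcripts with the upstream exon end elsewhere was not tested. These are estimates of transcripts that share most of their sequence, at unknown depth, so no test was made of the exon shares.

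**Figure D2:**
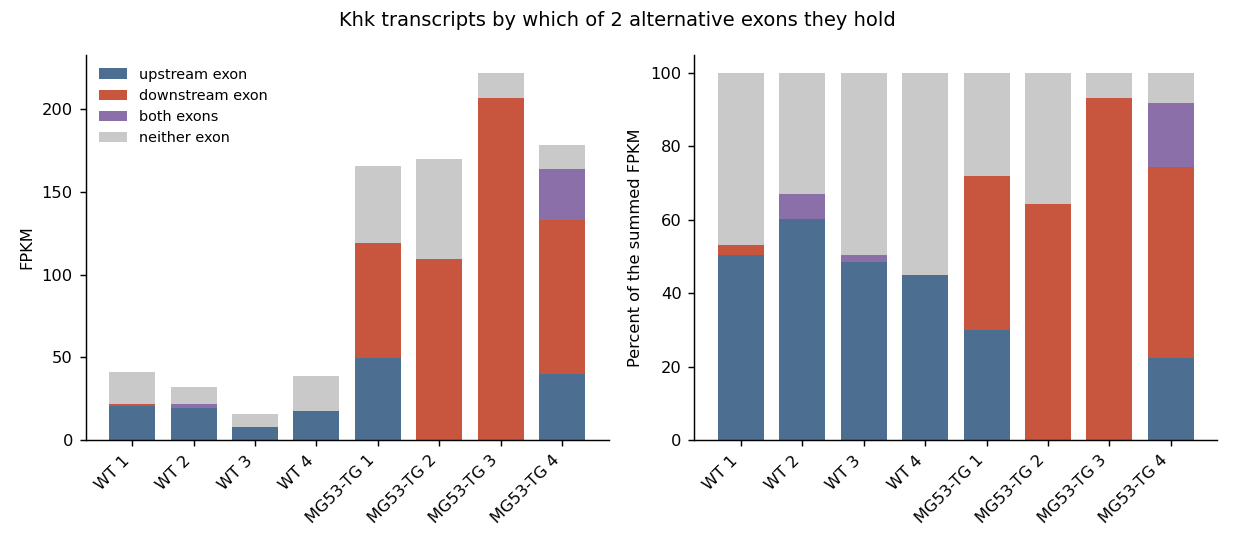
Khk transcripts in each sample by exon pattern, as FPKM (left) and as percent of the summed FPKM of the 4 patterns (right). The upstream exon alone (blue) makes up 44.8% to 60.2% of the WT bars and is also seen in MG53-TG samples 1 and 4, at 49.7 and 39.9 FPKM, and the downstream exon alone (red) makes up 41.9% to 93.1% of the MG53-TG bars.

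Tkfc (ENSMUSG00000034371, chr19:10587791-10605654, minus strand) was at 92.2, 71.4, 84.5 and 81.0 FPKM in the WT samples and at 346, 246, 318 and 377 FPKM in the MG53-TG samples. It was the most abundant of the 8 genes in the WT organoids by its mean, and its range overlapped with that of Slc5a1. The mean rose from 82.3 ± 8.63 to 322 ± 55.9 FPKM (SD, n = 4), a ratio of 3.91, with a log2 fold change of 1.94 ± 0.14 (SE; limma, adjusted p = 1.94e-05). This value rests on the end event of the gene. The start events of Tkfc summed to 0.339 to 1.17 FPKM in 7 samples and to 83.9 FPKM in WT sample 4, so with start events alone the change was -1.14 (limma adjusted p = 0.484). An internal exon of the gene (chr19:10597310-10597388), listed as an event of its own, was at 71.4 to 92.3 FPKM in WT and 246 to 377 FPKM in the MG53-TG samples, close to the end event.

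Of the 7 genes of other fructose and polyol steps, 3 were higher, 2 lower and 2 did not pass, with the same counts under both other scalings. Among the higher ones were Akr1b7 (log2 fold change 1.95) and Glyctk, the glycerate kinase (1.03), which averaged 0.487 FPKM in WT and passed the filter through the MG53-TG samples. The lower ones were Akr1b3 (-1.38), the aldose reductase that forms sorbitol from glucose, and its relative Akr1b8 (-2.16), with limma adjusted p from 0.000150 to 0.00488 over Akr1b7, Akr1b8 and Akr1b3. Sord, the sorbitol dehydrogenase that forms fructose, was at 119 ± 8.75 and 128 ± 10.03 FPKM (SD, n = 4 each; limma adjusted p = 0.368).

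Ketohexokinase was also set against the hexokinases, which phosphorylate glucose. They did not move together. Hk1 fell from 10.9 ± 0.954 to 5.05 ± 0.6004 FPKM and Hk2 from 19.6 ± 1.21 to 2.10 ± 0.979 FPKM (SD, n = 4 each; limma adjusted p = 0.000252 and 2.35e-05). Hkdc1, the most abundant of the hexokinases in both groups, rose from 25.5 ± 1.70 to 42.3 ± 8.75 FPKM (SD, n = 4 each; limma adjusted p = 0.00561). Khk made up 59.6%, 46.6%, 32.9% and 55.0% of the summed FPKM of Khk, Hk1 and Hk2 in the WT samples. It made up 96.2%, 95.2%, 96.9% and 97.2% in the MG53-TG samples (two-sided exact permutation test, p = 0.0286, adjusted 0.0333). With Hkdc1 in the sum as well, a choice made after seeing the data, the share of Khk was 34.5% ± 10.5 in WT and 79.7% ± 0.918 in MG53-TG (SD, n = 4 each; exact permutation p = 0.0286, adjusted 0.0333).

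The 3 gluconeogenesis genes went different ways. G6pc (ENSMUSG00000078650, chr11:101367561-101377903, plus strand) was at 1.99, 1.56, 0.877 and 1.18 FPKM in the WT samples and at 23.4, 25.1, 19.4 and 18.3 FPKM in the MG53-TG samples. Its lowest MG53-TG sample was 9.17 times the highest WT sample. The mean rose from 1.403 ± 0.481 to 21.5 ± 3.24 FPKM (SD, n = 4), a ratio of 15.4, with a log2 fold change of 3.24 ± 0.17 (SE; limma, adjusted p = 3.66e-06). The start and end events of G6pc carried the same values.

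The related G6pc3, a widely expressed glucose-6-phosphatase, was at 13.3 ± 0.981 and 12.5 ± 2.58 FPKM (SD, n = 4 each; limma adjusted p = 0.581). G6pc made up 9.37% ± 2.43 of both genes together in the WT and 63.5% ± 3.92 in MG53-TG (SD, n = 4 each; exact permutation p = 0.0286, adjusted 0.0333). Slc37a4, which carries glucose 6-phosphate to the phosphatase inside the endoplasmic reticulum, rose from 21.1 ± 3.35 to 67.7 ± 16.6 FPKM (SD, n = 4 each; limma adjusted p = 0.000227). The transporter and the catalytic subunit of the final step were thus both higher.

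Fbp1 (ENSMUSG00000069805, chr13:62864753-62888282, minus strand) was the gene that fell. It was at 19.3, 22.4, 22.0 and 26.1 FPKM in the WT samples and at 8.51, 8.35, 16.0 and 15.9 FPKM in the MG53-TG samples. MG53-TG samples 1 and 2 were lower than samples 3 and 4, and all 4 were below the WT samples. The mean was 22.4 ± 2.77 FPKM in WT and 12.2 ± 4.34 FPKM in MG53-TG (SD, n = 4 each), 1.84 times higher in the WT, with a log2 fold change of -0.88 ± 0.23 (SE; limma, adjusted p = 0.0132). The call depends on the scaling: under median-of-ratios scaling the change was -0.70 on the log2 scale (limma adjusted p = 0.0658), the scaled groups overlapped and the exact permutation p was 0.0857. That scaling moved the median of all genes up by 0.16 on the log2 scale.

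Fbp2 encodes the related enzyme for the same step, was the more abundant of the pair in every sample and rose. How reads matching both genes were assigned is not given in the sources used here. It was at 101, 99.4, 94.0 and 93.6 FPKM in the WT samples and at 199, 201, 204 and 211 FPKM in the MG53-TG samples (log2 fold change 1.06 ± 0.068 SE, limma adjusted p = 9.69e-06). Fbp1 made up 18.8% ± 2.33 of both genes together in the WT and 5.59% ± 1.79 in MG53-TG (SD, n = 4 each; exact permutation p = 0.0286, adjusted 0.0333). The summed FPKM of the pair was 119 ± 2.46 in the WT and 216 ± 9.20 in MG53-TG (SD, n = 4 each), so it was higher although Fbp1 was lower.

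Pck1 (ENSMUSG00000027513, chr2:173153048-173159273, plus strand) had the lowest level of the 8 genes in both groups. Its end event was at 0.690, 0.676 and 0.804 FPKM in WT samples 1 to 3, with no value in WT sample 4, which the fit left out for this gene. It was at 1.01, 0.715, 2.62 and 2.71 FPKM in the MG53-TG samples. MG53-TG samples 1, 3 and 4 were above the 3 WT samples, and MG53-TG sample 2 lay within the WT range. The log2 fold change was 0.60 ± 0.29 (SE; limma, adjusted p = 0.133) and the exact permutation p was 0.2. Without MG53-TG sample 2 the limma adjusted p was 0.0386. The start events gave 0.805, 0.734, 0.0175 and 0.466 FPKM in WT and 0.719, 0.766, 2.80 and 2.76 FPKM in the MG53-TG samples, with MG53-TG samples 3 and 4 again above the rest.

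Pck2, the mitochondrial isoform, was the more abundant and fell from 25.5 ± 2.48 to 9.93 ± 3.13 FPKM (SD, n = 4; log2 fold change -1.32, limma adjusted p = 0.00102). Pck1 made up 2.71% ± 0.0499 of both genes together in the WT (SD, n = 3) and 7.46%, 5.34%, 25.3% and 28.7% in MG53-TG samples 1 to 4. The groups did not overlap, and the exact permutation test of the difference in means gave p = 0.171 with 3 WT values. The difference in this share was 14.0 percentage points and depended on how the 2 genes were measured. It was 44.9 points with start events only (adjusted p = 0.0286), 15.5 points without the check of exon coordinates (0.0327) and 14.7 points with the missing value of WT sample 4 taken as 0 (0.0286).

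**Figure D3:**
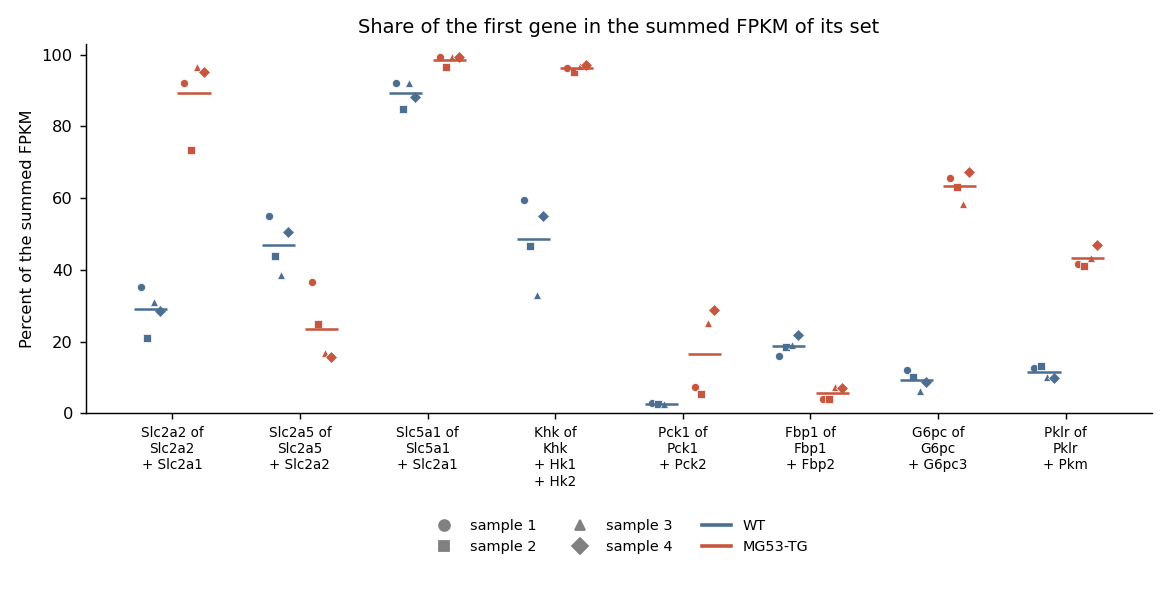
Percent of the summed FPKM made up by the first gene of each set in the WT (blue) and MG53-TG (red) samples, with lines at the group means. Slc2a2, Khk and G6pc gained share and Slc2a5 and Fbp1 lost it, and the values of Pklr use genes found by exon coordinates alone.

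Among 16 tested genes of other gluconeogenesis steps, 8 were higher, 3 lower and 5 did not pass. Of the 3, Ldhb averaged 1.08 FPKM in WT and 0 FPKM in MG53-TG. It passed the filter through the WT samples alone, so its direction was set by the filter. With median-of-ratios scaling 9 were higher and 2 lower, and with quantile normalization 7 and 3. The largest changes were in Gpd1, a cytosolic glycerol-3-phosphate dehydrogenase (41.7 ± 4.34 to 242 ± 18.3 FPKM), Gpt, an alanine aminotransferase (3.82 ± 0.771 to 20.7 ± 11.5 FPKM), Slc37a4 and Gk, the glycerol kinase (3.63 ± 0.402 to 13.7 ± 6.37 FPKM; SD, n = 4 each). Gpt and Gk were highest in MG53-TG samples 3 and 4, as Slc2a2 and Pck1 were.

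The irreversible steps of glycolysis run against gluconeogenesis, and of 11 genes tested for them 4 were higher and 4 lower, with the same counts under both other scalings. Besides Hk2 (log2 fold change -2.78) and Hk1 (-0.98), Pfkfb3, which raises the activator of phosphofructokinase, fell by 2.72 on the log2 scale, and its relative Pfkfb4 rose by 1.06. Pklr, the pyruvate kinase of liver and intestine, rose from 104 ± 7.03 to 479 ± 10.3 FPKM (SD, n = 4 each), with limma adjusted p from 3.98e-07 to 0.000252 over Hk1, Hk2, Pfkfb3 and Pklr. Pkm, the widely expressed pyruvate kinase, lay in rows that the files name after another gene and had no value by identifier. By exon coordinates alone, chosen after seeing the data, Pkm was at 820 ± 107 and 632 ± 69.2 FPKM in WT and MG53-TG organoids (SD, n = 4 each). On that basis Pklr made up 11.4% ± 1.74 and 43.3% ± 2.55 of both pyruvate kinases (SD, n = 4 each; exact permutation p = 0.0286, adjusted over 9 sets 0.0321).

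Of 8 tested genes of the steps shared by both directions, Gapdh was higher (log2 fold change 0.68, limma adjusted p = 0.00289) and Pgk1 and Tpi1 were lower (-0.71 and -0.51, limma adjusted p = 0.00475 and 0.000985), but Pgk1 and Tpi1 did not pass with median-of-ratios scaling (limma adjusted p = 0.0665 and 0.0564). That scaling called 2 of the 8 higher and 0 lower, and quantile normalization 2 and 3. In the galactose pathway, which takes up the other sugar carried by SGLT1, 1 of 8 genes was higher and 3 were lower. Galm, the mutarotase, rose from 33.6 ± 1.22 to 81.8 ± 8.51 FPKM (SD, n = 4 each), while Pgm2 and Galk1, among the lower ones, had log2 fold changes of -0.68 and -0.37. Galk1 did not pass with median-of-ratios scaling (limma adjusted p = 0.231), which called 2 higher and 2 lower, and quantile normalization called 2 and 3.

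Over the 7 lists of other sugar genes, 77 of 97 genes were tested, of which 26 were higher, 20 lower and 31 did not pass. That is 59.7% called, against 44.7% of all genes tested, with a median log2 fold change of 0.09. The counts of each single list stand against 15.5% higher and 29.2% lower among all genes tested. With median-of-ratios scaling 32 were higher and 15 lower. Among those called, 4 higher genes and 1 lower gene had passed the filter through the group in which they were high.

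**Figure D4:**
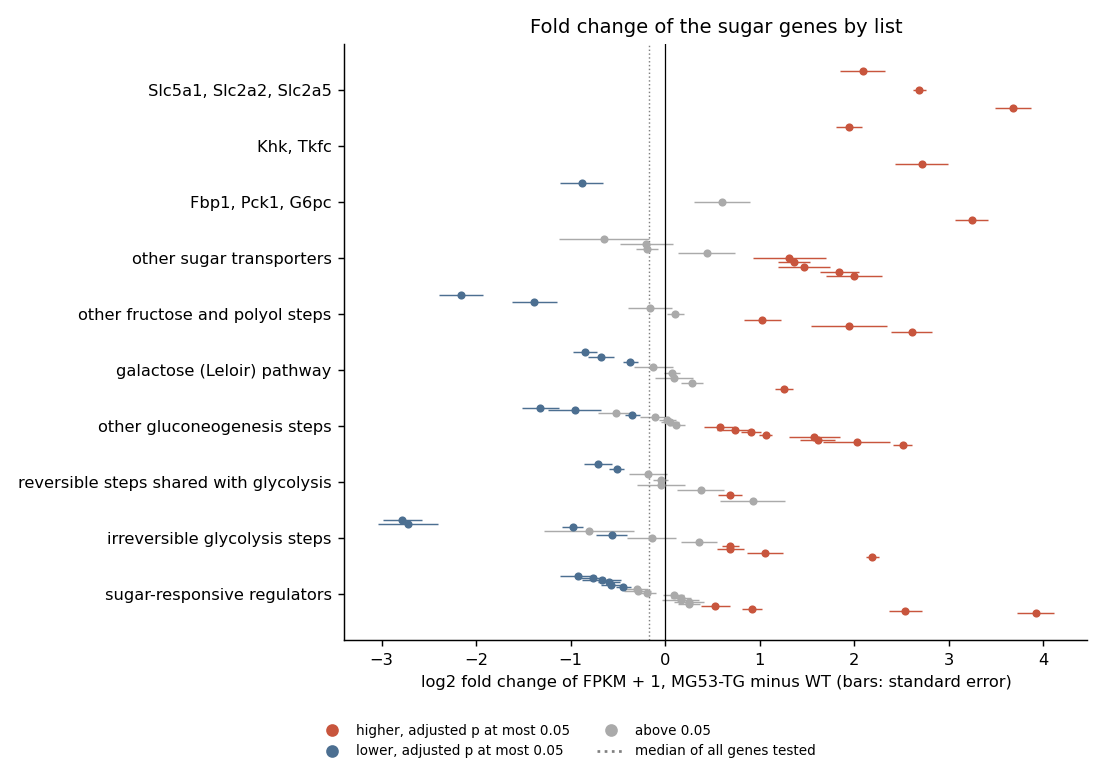
Log2 fold change of FPKM + 1 between MG53-TG and WT organoids with its standard error, for the 8 genes (top 3 rows) and the tested genes of 7 other lists, coloured by the limma call. The dotted line is the median of all genes tested (-0.17), and 6 of the 8 genes lie at 1.94 or above.

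Of 18 tested regulators listed for sugar-responsive genes, 4 were higher and 6 lower, where 15.5% and 29.2% of all genes tested were. The counts were 7 and 5 with median-of-ratios scaling and 5 and 6 with quantile normalization. Creb3l3, a liver and intestine transcription factor, rose from 1.95 ± 0.408 to 44.4 ± 12.3 FPKM, and Hnf4g rose from 15.5 ± 0.928 to 97.6 ± 28.6 FPKM (SD, n = 4 each; limma adjusted p = 2.59e-06 and 1.53e-05). Mlxipl, which encodes the carbohydrate response factor ChREBP, was higher (log2 fold change 0.92, limma adjusted p = 0.000246), and Creb1 was lower (-0.92, limma adjusted p = 0.00504).

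The 250 bases before the RefSeq start of each of the 8 genes (GRCm38.p6) were searched on both strands for 8 short motifs. The letters GTTAAT, part of the HNF1 site, were found for Khk, Pck1 and G6pc, 3 of 8 genes, and in 6.43% of 32851 promoters of the same length. The E-box CACGTG was found for Slc5a1 and Khk (6.02% of promoters), AGGTCA, a nuclear receptor motif, for Slc2a2 and G6pc (14.0%), and AGATAA, which fits binding sites of the GATA family, for Fbp1 and Pck1 (9.99%). The HNF4 motif CAAAGTC was found for Tkfc alone among the 8 genes, with 3.84% of promoters holding it. The TATA box, searched as TATAAA, was found for G6pc alone, with 12.4% of promoters holding it. Pck1 was the gene with the most matches, since it also held the CDX motif TTTATNG (9.81% of promoters) and the cAMP response motif, searched as TGACGT (6.47% of promoters). Slc2a5 had none of the 8 motifs in its window. A match describes letters and not binding. The windows of the 3 genes with the smallest limma adjusted p and of Fbp1, the gene that fell, are shown with the matches in capitals, each on the strand of its gene. For Slc5a1, Slc2a2 and Fbp1 they run to the base before the start that the files also list. The RefSeq start lies downstream of the most abundant listed start by 25 bases for Pck1, 128 bases for Khk, 155 bases for G6pc and 1126 bases for Tkfc, where the start used was abundant in WT sample 4 alone (79.7 FPKM, and at most 0.0176 FPKM in the other samples). Both Khk matches and the TATAAA and AGGTCA matches of G6pc thus lie within the first exon of the listed transcripts, and the Tkfc window lies wholly downstream of that start. For G6pc only the 95 bases before the annotated first exon are shown, which hold 1 of its 3 matches. No start event of Slc2a5 was analysed here.
Slc5a1, chr5:33103969-33104218, plus strand: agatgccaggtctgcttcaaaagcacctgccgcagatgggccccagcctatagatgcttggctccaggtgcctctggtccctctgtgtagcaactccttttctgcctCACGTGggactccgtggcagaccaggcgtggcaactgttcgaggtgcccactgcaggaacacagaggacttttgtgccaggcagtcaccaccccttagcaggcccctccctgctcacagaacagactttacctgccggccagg
Slc2a2, chr3:28697653-28697902, plus strand: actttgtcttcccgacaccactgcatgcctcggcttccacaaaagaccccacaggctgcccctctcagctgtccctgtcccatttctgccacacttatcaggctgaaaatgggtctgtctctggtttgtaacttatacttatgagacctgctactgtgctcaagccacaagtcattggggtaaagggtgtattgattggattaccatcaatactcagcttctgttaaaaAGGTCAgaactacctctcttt
G6pc, chr11:101367466-101367560, plus strand: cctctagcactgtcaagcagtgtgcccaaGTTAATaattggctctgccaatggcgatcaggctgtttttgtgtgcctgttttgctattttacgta
Fbp1, chr13:62888283-62888532, minus strand: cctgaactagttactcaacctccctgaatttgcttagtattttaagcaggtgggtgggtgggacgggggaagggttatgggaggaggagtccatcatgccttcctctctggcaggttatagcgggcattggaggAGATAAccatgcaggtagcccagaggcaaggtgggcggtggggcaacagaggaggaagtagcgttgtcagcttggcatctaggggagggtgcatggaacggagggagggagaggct

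The order of the levels differed between the groups. In the WT organoids it was Tkfc, Slc5a1, Khk, Fbp1, Slc2a2, Slc2a5, G6pc and Pck1, where Tkfc and Slc5a1, Khk and Fbp1, Slc2a2 and Slc2a5, and Slc2a5 and G6pc overlapped between samples. In the MG53-TG organoids it was Slc5a1, Tkfc, Khk, Slc2a2, G6pc, Slc2a5, Fbp1 and Pck1, where G6pc and Slc2a5, and Slc2a5 and Fbp1, overlapped. Fbp1 went from the 4th to the 7th place, while Slc5a1 took the first.

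Over the 8 samples, the gene whose log2(FPKM + 1) was most like Slc2a2 was Tm4sf20, with r = 0.999. For others it was Rab3a for Slc2a5 (0.995), Ero1lb for Khk (0.993), Tmem98 for Tkfc (0.996), Edem1 for Fbp1 (0.983) and Cdr2 for G6pc (0.996). All of these values include the difference between the groups. Over the deviations from the group means, Fbp1 was most like Apoa2 (r = 0.988) and Slc2a2 most like Gipc2 (0.988). For Slc5a1, Slc2a5, Khk, Tkfc and G6pc it was Cidec (0.951), Ankrd22 (0.980), Micall1 (0.977), Fgf9 (0.969) and 3010003L21Rik (0.978). Each is the highest of 9958 genes over 8 samples and is given as a description. Pck1, with a missing value, was not compared.

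Cell type markers also differed between the groups. Among all genes tested, 15.5% were higher and 29.2% lower. Of 20 enterocyte markers, 19 were higher in the MG53-TG organoids and Dpp4 did not pass. Of the 19, Slc15a1 had passed the filter through the MG53-TG samples alone. Their summed FPKM was 1161 to 1343 in the WT and 12233 to 13734 in the MG53-TG samples. Of 10 stem cell markers, 6 were lower, with sums of 542 to 725 FPKM in WT and of 324, 340, 111 and 69.5 FPKM in MG53-TG samples 1 to 4. Lgr5, which did not pass, entered with part of its listed events only. Of 12 proliferation markers, 10 were lower, with sums of 632 to 701 FPKM in WT and of 453, 472, 222 and 154 FPKM in MG53-TG samples 1 to 4. With median-of-ratios scaling 9 of the proliferation and 6 of the Paneth cell markers were lower. All 7 tested Paneth cell markers and 5 of 7 tested goblet cell markers were lower, with sums of 1227 to 1643 and 686 to 778 FPKM in WT and 258 to 460 and 184 to 506 FPKM in the MG53-TG samples. The goblet sums were 184, 257, 425 and 506 FPKM in MG53-TG samples 1 to 4. The goblet marker Zg16 did not pass and went the other way, at 5.25 to 11.2 FPKM in WT and 7.57, 11.8, 53.0 and 62.2 FPKM in MG53-TG samples 1 to 4. Of the 7 Paneth cell markers, Defa26 and Pla2g2a averaged below 0.5 FPKM in MG53-TG and passed the filter through the WT samples alone, so their direction was set by the filter. Of 10 tested enteroendocrine markers 4 were higher, and no tuft cell marker passed the filter. The split of the MG53-TG samples in stem cell and proliferation markers, samples 1 and 2 above 3 and 4, was the reverse of that in Slc2a2, Khk, Fbp1 and Pck1 and the same as that in G6pc and Slc2a5. In bulk RNA, fewer cells of a type and less RNA per cell cannot be told apart, and the part of these cell types in the values of the 8 genes was not tested.

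Liver and kidney also express several of the 8 genes. Of 6 hepatocyte markers, Cyp7a1 and Fgb had no value here, Alb, Serpina1a and Hp were below the filter, with Alb at 0.521 to 0.883 FPKM in WT and with no listed event in the MG53-TG samples, and Ttr was at 34.6 and 32.0 FPKM in WT and MG53-TG organoids. Of 6 kidney proximal tubule markers, 5 had no value here, and Cubn was at no more than 0.484 FPKM in any sample. The summed immune cell markers were 3.77 to 9.24 FPKM in WT and 0.609 to 1.47 FPKM in the MG53-TG samples, mostly from Cd68. Of 7 mesenchyme markers 3 were tested. Vim was at 2.41 ± 0.602 and 1.59 ± 0.641 FPKM in WT and MG53-TG (SD, n = 4 each; limma adjusted p = 0.125). Col1a2 and Col3a1 had no listed event in the WT samples or in MG53-TG sample 1, and averaged 1.24 and 1.26 FPKM over MG53-TG samples 2 to 4.

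**Figure D5:**
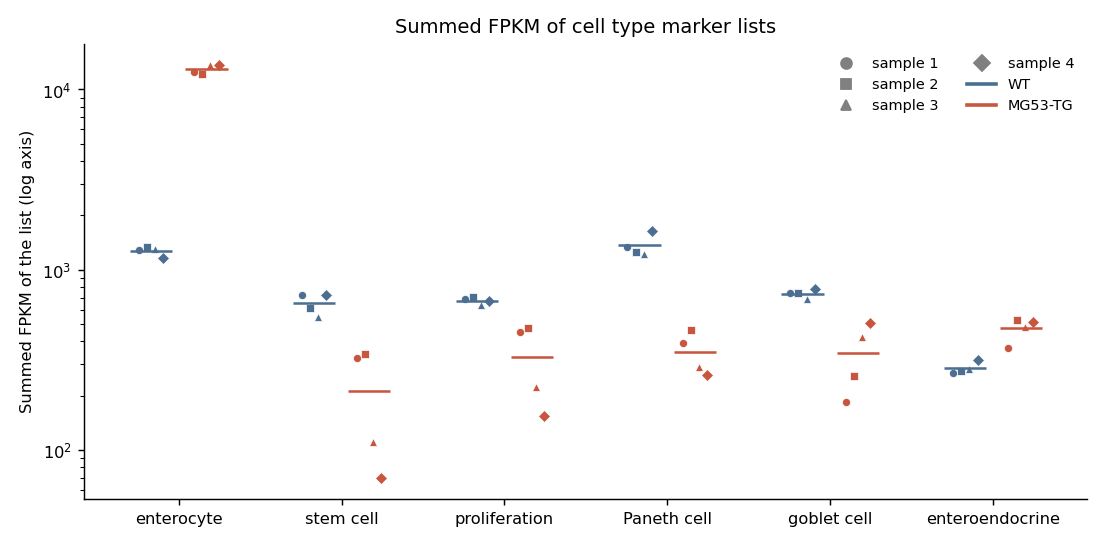
Summed FPKM of 6 marker lists (log axis) in the WT (blue) and MG53-TG (red) samples, with lines at the group means. Enterocyte markers are higher in the 4 MG53-TG samples (12233 to 13734 FPKM), while stem cell, proliferation, Paneth and goblet cell markers are lower.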

How the data were processed

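Intestinal organoid RNA of 4 WT and 4 MG53-TG samples had been sequenced. Per the labels, the authors trimmed the reads with cutadapt 1.9.1, mapped them to mm10 with HISAT2 2.0.1 and named HTSeq 0.6.1 and DESeq2, and they deposited FPKM values per transcript event. The tool that made the event tables is not given in the sources used here. Whole reads could not be recovered (smallest FPKM 1e-06), so tests on counts were not run and no counting interval was computed.

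Events were kept for a gene if their identifier and all their exon boundaries matched the GENCODE M21 annotation, as 87.3% of start and end events did. A gene's FPKM was the sum of its start events, or of its end events where their mean was higher. Where a sample listed no event of a gene, the value was set to 0, unless the group's remaining samples reached a median of 0.5 FPKM, in which case it stayed missing. Of 13081 genes, 492 had a missing value. Groups were compared with limma 3.58.1 (lmFit, eBayes with trend) in R 4.3.3 on log2(FPKM + 1), for genes averaging 0.5 FPKM or more, with p-values adjusted by Benjamini-Hochberg and called at 0.05. Shares were compared by two-sided exact permutation tests over 70 relabellings, whose smallest p is 0.0286. In simulated data 200 of 9965 genes were changed, in random directions and with independent noise. There the fit recovered 66% of genes changed by 1 and 94% of those changed by 2 on the log2 scale, with 4 unchanged genes called. In the real data 44.7% of genes passed, more of them lower than higher, so these rates need not hold for them. Python 3.11.15, numpy 2.4.6 and pandas 2.3.3 were used for the rest.

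The 8 genes, the other lists, the sets for the shares and the motifs were chosen with earlier results of these data known. Named were the 8 genes, up to 4 called genes with the largest change of each other sugar list, the genes of the sets, the closest gene of each and Trim72. Names taken outside that rule (Sord, Glyctk, Hkdc1, Slc5a4b, Ldhb, the marker genes) were chosen after their values were seen. The fit was repeated with a pseudocount of 0.1, without the filter, with a stricter filter (2 FPKM), with median-of-ratios and quantile scaling, with a replicate block, with sample weights, with other ways to form a gene's value, and without each sample in turn. Assignment by exon coordinates alone, the Khk exon alternatives and Hkdc1 in the set of Khk were added after seeing the data. Some genes of these lists and sets are not reported here by name.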

Additional observations from a re-analysis of the deposited data

Results flagged for a closer look

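Values that stood apart within a group of 4 samples by Dixon's test at the 95% level were found in 4 of 36 groups examined. For independent, normally distributed groups that level would give 1.8. The groups here share gene values and hold shares near 0%, so 1.8 is a rough guide only. Slc2a5 was at 23.2 FPKM in MG53-TG sample 1, with the other 3 MG53-TG samples between 13.2 and 14.6 FPKM. The share of Slc5a1 in the sum of Slc5a1 and Slc2a1 was 96.6% in MG53-TG sample 2, with the other 3 between 99.2% and 99.5%, and Slc2a1 was at 15.9 FPKM in that sample. For Khk, transcripts with the downstream exon made up 2.76% in WT sample 1 and no more than 0.00370% in the other WT samples. Transcripts with both exons made up 17.4% in MG53-TG sample 4 and no more than 0.0495% in the other MG53-TG samples.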

How the results depend on the processing

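The 8 genes were refitted under up to 21 alternatives each, and 163 of 166 log2 fold changes kept their direction and their side of the threshold. The exceptions were Tkfc with start events only (-1.14, limma adjusted p = 0.484), where WT sample 4 alone had a high start event, Fbp1 with median-of-ratios scaling (-0.70, limma adjusted p = 0.0658), where the scaling moved all genes up, and Pck1 without MG53-TG replicate 2 (0.80, limma adjusted p = 0.0386), for which the cause was not tested. Leaving out each sample in turn, 7 or 8 of the 8 genes, 42 to 48 of the other sugar genes and 3651 to 4865 of all genes passed, against 7, 46 and 4595, and the Khk downstream exon share differed by 52.0 to 69.1 percentage points, against 62.1. Of 7 shares, 6 passed, and 5 or 6 did when a sample was left out, the loss being Slc2a5 of Slc2a5 and Slc2a2 (adjusted p = 0.0667 without any single WT sample). Deviations of samples with the same replicate number correlated at -0.05 to 0.09. These values show no pairing by replicate number but cannot exclude that such samples shared a litter or a batch. With the number as a replicate block 4195 of all genes, 7 of the 8 genes and 47 of the other sugar genes passed. Quantile normalization shifted the median of all genes by 0.12 on the log2 scale. The unknown depth limits the reading of low values, those of Pck1 and of the rarer Khk exon patterns above all.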
